A study of Mus musculus with 11 samples.

Results

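Solute carriers are membrane proteins that move amino acids, sugars, nucleosides, metals, inorganic ions, vitamins and metabolites across the plasma membrane and the membranes of organelles. Plasma membrane carriers supply a dividing B cell with glutamine, leucine and glucose, zinc carriers of the Slc30 and Slc39 families move zinc in opposite directions, and carriers of the Slc25 family link the cytosol with the mitochondrial matrix. The genes described here are those whose symbol has the form Slc, family number, letter, member number and whose mean normalized count over 11 libraries was at least 100. They were thus chosen by symbol and by measured mean level over all groups, and not by a difference between groups. The rule took in 175 of 48593 genes. Of 361 symbols of that form, 59 were at 0 in every library and 126 lay above 0 with a mean under 100, and 1 further gene over 100 was left out of the set. Just inside the limit were Slc25a29 (mean 107) and Slc39a8 (mean 107), and just outside it were Slc18a1 (95.9) and Slc5a10 (93.5). In 5 genes, Slc1a3, Slc25a29, Slc39a4, Slc39a8 and Slc4a11, the mean of at least 1 group was under 100. They entered through the level in other libraries. Without the CBP-KO libraries the mean of Slc39a8 was 80.7, and without the p300-KO libraries that of Slc25a29 was 88.7, so a rise of Slc39a8 in CBP-KO and of Slc25a29 in p300-KO was favoured by the rule, and both are described without a test.

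RNA was sequenced in bulk from mouse germinal center B cells, the B cells that divide and mutate their antibody genes after immunization. Mice received sheep red blood cells, and on day 12 spleen cells carrying B220, PNA and CD95 were collected by sorting. The 3 CBP-KO libraries carry Crebbp fl/fl with both Ep300 alleles intact, the 3 p300-KO libraries carry Ep300 fl/fl with both Crebbp alleles intact, and the 5 WT libraries have both genes intact. Mice of all 3 groups carried 1 Cg1cre allele, so Cre expression itself does not differ between the groups by genotype. Crebbp and Ep300 encode CBP and p300, related lysine acetyltransferases that act as coactivators of transcription. Cre at the Cg1 locus, the gene segment of the IgG1 constant region, acts in germinal center B cells, and the sort named no marker of cells in which Cre had acted. The WT mice were labelled as littermates from Crebbp crosses and none as a littermate of the p300-KO mice, so cross and loss of Ep300 cannot be told apart. Sex, litter and batch were not labelled. The labels do not say that each library came from its own mouse, so p-values measure the spread between these libraries.

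Depth was 53550726 to 132861266 reads per library. Ep300 stood at 13773 to 14829 normalized counts in p300-KO, against 19310 to 22498 in WT (log2 -0.55, adjusted p = 0.00015). Crebbp stood at 7541 to 8606 in CBP-KO and 7984 to 9584 in WT (log2 -0.10, adjusted p = 0.459); counts per gene do not resolve the floxed exons and do not check the CBP-KO labels. The 10 B and germinal center B cell markers summed to between 494923 and 634418 in every library. The library p300-KO_18 held both Xist (98751) and Y-linked transcripts (sum 9852), a mixture found in no other library. WT_46 stood apart from the other WT libraries on the first principal component. On the second, CBP-KO_53 (36.3) and CBP-KO_55 (40.2) lay apart from CBP-KO_1 (0.4). The p300-KO libraries ran from -47.1 in p300-KO_287 to -6.8 in p300-KO_289 there. Y-linked transcripts summed to 25051 in CBP-KO_1 and to 0 in CBP-KO_53 and CBP-KO_55. The summed macrophage markers were 1972 to 2846 in CBP-KO and 2406 to 3124 in p300-KO, against 3493 to 8341 in WT, with the highest value in WT_46. Much of this sum was 1 gene, Mpeg1, at 1103 to 1712 in CBP-KO and 1267 to 1614 in p300-KO, against 2212 to 6428 in WT. Of 8 tested macrophage markers 4 were lower in CBP-KO (median log2 -1.61) and 1, Mpeg1, in p300-KO (median log2 -0.08). Adgre1 stood at 13.1 to 19.3 in CBP-KO and 43.5 to 84.7 in p300-KO, against 26.2 to 89.3 in WT. Cd14 and Spic did not exceed 10.5 in any library. T cell markers summed to 4890 to 6015 in CBP-KO and 4615 to 5926 in p300-KO, against 9003 to 11202 in WT, nearly all of it Lck. Cd3e was at 0 in 9 of 11 libraries. Plasma cell markers summed to 68255 to 81273 in p300-KO, above 54524 to 64631 in CBP-KO and 52903 to 62833 in WT. Most of this sum was Jchain in every library. Of 5 tested plasma cell markers 3 were higher in p300-KO. Erythroid markers summed to 102 to 562 and neutrophil markers to at most 11.6 in every library, with S100a8, Ly6g and Elane at 0.

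The carriers took 0.808% to 0.859% of all normalized counts in each library. Their means spanned a wide range, with 15 genes at 10000 or more, 100 genes between 1000 and 10000, and 60 genes between 100 and 1000. Per kb of exon, the highest level in WT belonged to Slc25a5, the main ADP/ATP exchanger of the inner mitochondrial membrane in dividing cells, at 25604 ± 1641 normalized counts per kb (SD, n = 5). It made up 17.8% of the summed per-kb level of the 175 genes over all libraries. Slc1a5, the plasma membrane glutamine carrier ASCT2, followed at 6707 ± 447 per kb. Slc25a4, a second ADP/ATP exchanger, stood at 5568 ± 318 per kb and Slc25a3, the phosphate carrier, at 5261 ± 198 per kb. Slc25a4 and Slc25a3 differed by less than the SD of Slc25a4 but by more than that of Slc25a3, and their order was not tested. Slc25a11, the oxoglutarate carrier, stood at 3102 ± 116 per kb. By class, the 37 mitochondrial carriers and the 24 amino acid and peptide carriers had the highest genes per kb, as the plot of WT levels shows.

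**Figure D1:**
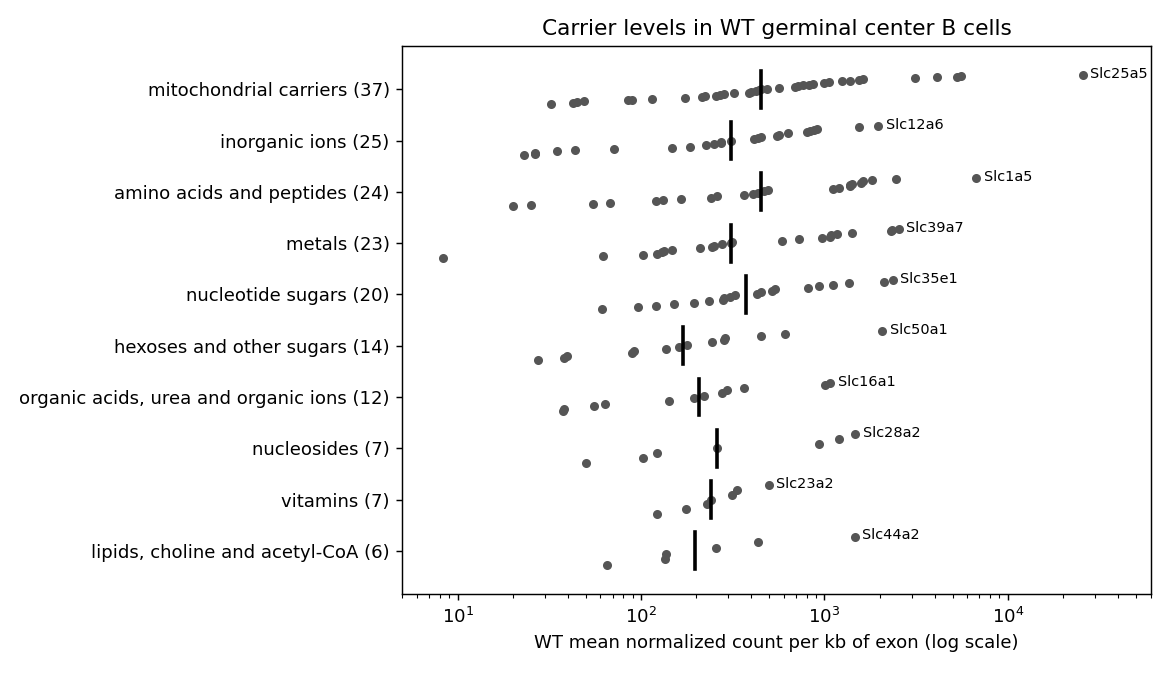
WT levels of 175 solute carrier genes by class, as the mean normalized count per kb of exon over 5 libraries on a log axis. Each point is a gene, each vertical bar is the class median, the number of genes is in brackets and the highest gene of each class is named. Slc25a5 lies farthest right at 25604 per kb, and Slc1a5 leads the amino acid and peptide carriers at 6707 per kb.

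Against WT, 25 of the 175 carriers passed the test in CBP-KO, 13 higher and 12 lower (background 3.48% higher and 4.88% lower; limma on log2(normalized count + 1), adjusted p below 0.05 over 16515 tested genes). That is 14.3% of the carriers, beside 8.36% of all tested genes and 9.87% of genes with a mean of at least 100. In p300-KO 30 carriers passed, 19 higher and 11 lower, or 17.1%, beside 11.9% of all tested genes (5.84% higher and 6.09% lower) and 14.3% of genes with a mean of at least 100. The median log2 fold change of the carriers was -0.03 in CBP-KO and 0.04 in p300-KO, and that of all tested genes was 0.01 in CBP-KO and -0.01 in p300-KO. Without the carrier that the rule favoured in each comparison, Slc39a8 or Slc25a29, the calls were 12 higher and 12 lower in CBP-KO and 18 higher and 11 lower in p300-KO. Most changes were small. Among called carriers the median size was 0.43 in CBP-KO and 0.42 in p300-KO on the log2 scale, and 2 in each knockout reached a factor of 2 (Slc39a8, which the rule favoured there, and Slc12a3 in CBP-KO, Slc25a23 and Slc16a10 in p300-KO). A call described below also held when any 1 library was left out, unless the loss is stated beside it; this covers the carriers and not the partner genes of the fixed lists. In CBP-KO all 25 called carriers had groups that did not overlap, out of 40 carriers without overlap, where 16.9% of all tested genes had none. In p300-KO 29 of 30 called carriers had none, out of 45 carriers, beside 19.0% of all tested genes. Because both comparisons share the WT libraries, their calls are given side by side and not as separate support for each other. Over all 3 comparisons 121 carriers passed in none.

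The called carriers were spread over the classes. In CBP-KO the calls were 2 higher and 2 lower among 24 amino acid and peptide carriers, 3 higher and 2 lower among 23 metal carriers, and 4 higher and 2 lower among 37 mitochondrial carriers. In p300-KO the same classes had 1 higher and 3 lower, 4 higher and 2 lower, and 4 higher and 1 lower. Of 14 carriers for hexoses and other sugars, none rose and 2 fell in CBP-KO, and 3 rose and 2 fell in p300-KO. Of the 60 carriers with means of 100 to 1000, 11 were higher and 1 lower in p300-KO. Over all 3849 genes of that level, 348 were higher and 187 lower in p300-KO. The metal carrier count in CBP-KO includes Slc39a8. In p300-KO the mitochondrial count and the count at means of 100 to 1000 include Slc25a29. The rule favoured both of these rises. Over all tested genes, 3.48% were higher and 4.88% lower in CBP-KO, and 5.84% higher and 6.09% lower in p300-KO. Differences between classes were not tested.

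**Figure D2:**
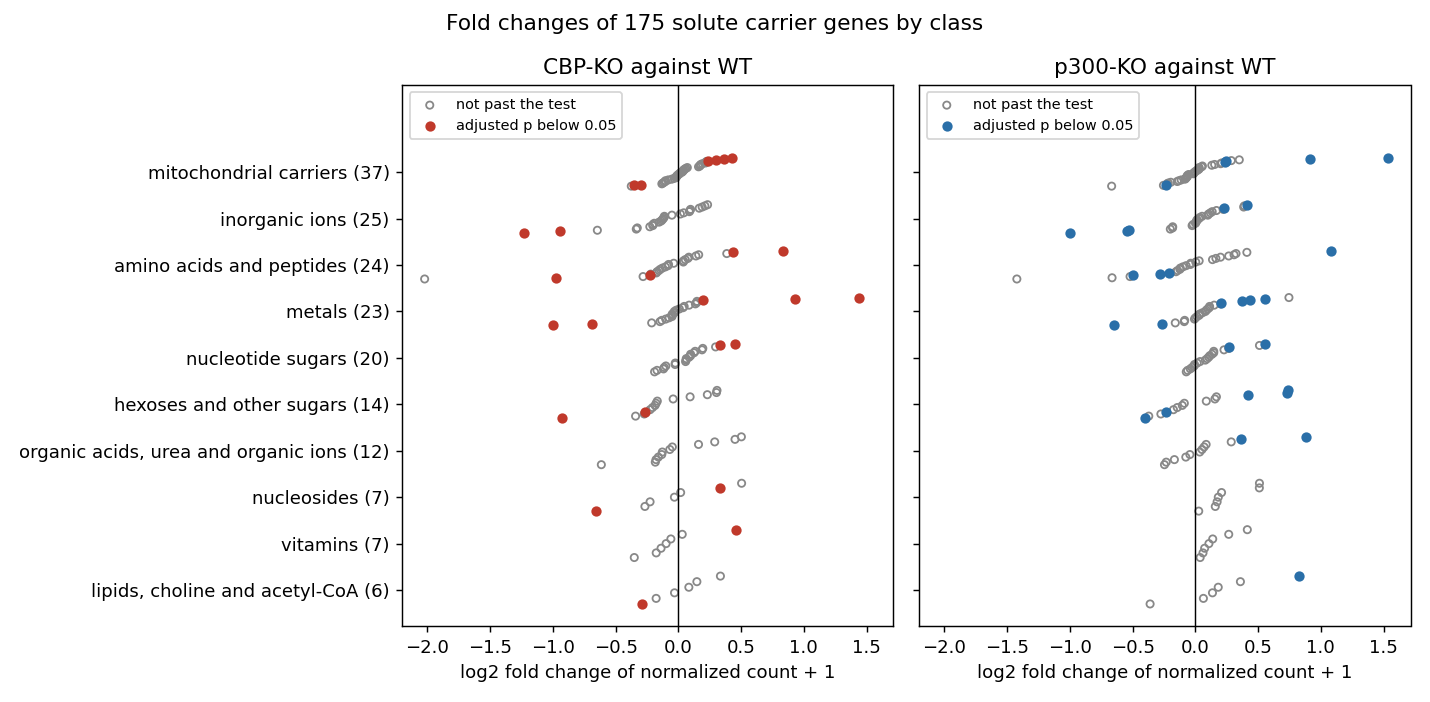
Log2 fold changes of normalized count + 1 for the 175 carriers by class, with CBP-KO against WT on the left and p300-KO against WT on the right. Filled points have an adjusted p below 0.05 and open points do not, and the number of genes per class is in brackets. Slc39a8 (1.44 in CBP-KO) and Slc25a29 in p300-KO are drawn filled, but entered the set through those levels, and their points are not read as a test. Apart from them, the called points run from -1.23 for Slc12a3 to 0.93 for Slc30a4 in CBP-KO. In p300-KO they run from -1.0 for Slc12a3 to 1.54 for Slc25a23.

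Among amino acid carriers, 3 glutamine carriers were abundant, and of these Slc1a5 passed the test, in p300-KO. Slc38a1, a sodium-coupled glutamine carrier of the plasma membrane, had log2 fold changes of 0.04 in CBP-KO (95% interval -0.10 to 0.18) and 0.00 in p300-KO (-0.14 to 0.14), and Slc38a2, its relative, had -0.04 and -0.12. Slc1a5 (chromosome 7, 16781340 to 16798274) had 27082, 28049.6 and 31185 normalized counts in CBP-KO, 25084, 22149 and 21706 in p300-KO, and 25733, 27731, 30767, 28567 and 27151 in WT. The p300-KO libraries lay below all 8 others, while CBP-KO and WT overlapped. Slc1a5 fell in p300-KO (log2 -0.29, SE 0.07, adjusted p = 0.0198), and CBP-KO stood above p300-KO (log2 0.32, adjusted p = 0.0224). The fall was not called without p300-KO_287 (adjusted p = 0.0775) or p300-KO_289 (0.0934). The difference between the knockouts was not called without CBP-KO_53, CBP-KO_55, p300-KO_287 or p300-KO_289 (adjusted p from 0.0555 to 0.0965).

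Slc7a5, the leucine carrier LAT1, and Slc3a2, the CD98 heavy chain that pairs with it, did not pass in either knockout. Slc7a5 averaged 7457 ± 530 in CBP-KO and 8599 ± 341 in p300-KO, against 9099 ± 1122 in WT, with log2 fold changes of -0.28 (95% interval -0.47 to -0.09, adjusted p = 0.0713) and -0.07. Slc3a2 averaged 5520 ± 172 in CBP-KO and 5843 ± 503 in p300-KO, against 6442 ± 480 in WT (log2 -0.22, adjusted p = 0.08, and log2 -0.14). Slc7a1, the cationic amino acid carrier CAT1, had 14648, 12924 and 13372 in CBP-KO, 13727, 13992 and 13576 in p300-KO, and 16984, 15902, 15409, 15024 and 16536 in WT. Every knockout library lay below every WT library. Slc7a1 fell in CBP-KO (log2 -0.23, adjusted p = 0.0235) and in p300-KO (log2 -0.21, adjusted p = 0.0252). The call in CBP-KO was lost without CBP-KO_53 (adjusted p = 0.134) or CBP-KO_55 (0.102), and that in p300-KO without any of its 3 libraries or without WT_288 (0.0545 to 0.0895).

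Larger fold changes were found among other cationic, aromatic and peptide carriers. Slc7a7 (chromosome 14, 54369442 to 54417780), the y+LAT1 subunit that exports cationic amino acids, had 656, 685 and 493 in CBP-KO, 882, 936 and 697 in p300-KO, and 1213, 1000.3, 1193, 1629.5 and 1026 in WT. The 3 groups did not overlap, and WT_46 was highest. Slc7a7 fell in CBP-KO (log2 -0.98, SE 0.16, adjusted p = 0.00345), and its difference in p300-KO did not pass (log2 -0.52, adjusted p = 0.0581). Without WT_46 the log2 fold change in CBP-KO was -0.87 (adjusted p = 0.00245). Slc7a7 is also expressed by macrophages, whose summed markers were lower in CBP-KO than in WT. That refit does not address the part of macrophages, because Mpeg1 was lower in CBP-KO (1103 to 1712) than in every WT library (2212 to 6428). The part of macrophages in the result was not tested. In bulk RNA, fewer cells of a type and less RNA per cell cannot be told apart. Slc1a3, a glutamate carrier, was named after its values were seen: it stood at 19.3, 7.87 and 50.2 in CBP-KO, 47.3, 24 and 25.6 in p300-KO, and 90.0, 17.4, 67.5 and 44.5 in 4 WT libraries, but at 854 in WT_46. The groups overlapped and it passed in no comparison.

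Slc16a10 (chromosome 10, 40033532 to 40142258), the aromatic amino acid carrier TAT1, had 202, 301 and 299 in CBP-KO, 323, 275 and 345 in p300-KO, and 139, 159.9, 174, 144 and 124 in WT. All 6 knockout libraries exceeded all 5 WT libraries. Slc16a10 rose 1.8-fold in CBP-KO (log2 0.83, SE 0.17, adjusted p = 0.00966) and 2.12-fold in p300-KO (log2 1.08, SE 0.17, adjusted p = 0.00156), and the knockouts were not distinguished (log2 -0.25, 95% interval -0.66 to 0.16). Its call in CBP-KO was lost without CBP-KO_53 (adjusted p = 0.0613) or CBP-KO_55 (0.0608). Slc36a4 (chromosome 9, 15709738 to 15743361), a carrier of the proton-coupled amino acid family, had 4721, 3919 and 3906 in CBP-KO, 2953, 3392 and 3113 in p300-KO, and 2978, 3229, 3211, 2920.3 and 3082 in WT. The CBP-KO libraries stood above all others, and p300-KO overlapped with WT. Slc36a4 rose in CBP-KO (log2 0.43, SE 0.07, adjusted p = 0.00382), stood at log2 0.03 in p300-KO, and was higher in CBP-KO than in p300-KO (log2 0.40, adjusted p = 0.00984). Slc15a3, a lysosomal carrier of histidine and small peptides, had 2471, 3035 and 2376 in CBP-KO, 1588, 1602 and 1871 in p300-KO, and 2683, 2492, 2125, 1917 and 2746 in WT. The p300-KO libraries were the 3 lowest. Slc15a3 fell in p300-KO (log2 -0.49, adjusted p = 0.0213), with 28.1% of its exon length overlapped by Tmem132a on the opposite strand, which counts without strand cannot separate. That fall was lost without p300-KO_18 (adjusted p = 0.0852) or p300-KO_287 (0.0807).

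Of 6 carriers of the Slc2 family, 1 was higher and 1 lower in CBP-KO than in p300-KO. Slc2a3 (chromosome 6, 122727809 to 122801640), the high-affinity glucose carrier GLUT3, had 1361, 1397 and 1309 in CBP-KO, 1885, 2292 and 2152 in p300-KO, and 1344, 1432, 1227, 948 and 1474 in WT. All p300-KO libraries exceeded all others, and CBP-KO overlapped with WT. Slc2a3 rose 1.64-fold in p300-KO (log2 0.73, SE 0.13, adjusted p = 0.00297), stood at log2 0.09 in CBP-KO, and was lower in CBP-KO than in p300-KO (log2 -0.63, adjusted p = 0.0147). The last call was lost without CBP-KO_55 (adjusted p = 0.0591) or p300-KO_287 (0.0592). Slc2a1, the basal glucose carrier GLUT1, had 2204, 2746 and 2604 in CBP-KO, 2000.1, 1899 and 2137 in p300-KO, and 2216, 2184, 2025, 2219 and 2043 in WT. The knockouts did not overlap with each other, and both overlapped with WT. Slc2a1 passed in neither knockout against WT (log2 0.23, adjusted p = 0.0872 in CBP-KO, and log2 -0.09 in p300-KO) and was higher in CBP-KO than in p300-KO (log2 0.32, adjusted p = 0.0369). This last call was lost without any 1 of CBP-KO_53, CBP-KO_55, p300-KO_18, p300-KO_287 or WT_7 (adjusted p from 0.053 to 0.144).

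Slc37a2 (chromosome 9, 37227585 to 37255738), a sugar phosphate exchanger of the endoplasmic reticulum, had 442, 631 and 447 in CBP-KO, 923, 984 and 1119.6 in p300-KO, and 689.6, 678, 591, 454 and 634 in WT. It was highest in the 3 p300-KO libraries, and CBP-KO overlapped with WT. Slc37a2 rose 1.66-fold in p300-KO (log2 0.74, SE 0.15, adjusted p = 0.00831), and it was lower in CBP-KO than in p300-KO (log2 -1.01, SE 0.17, adjusted p = 0.00343). The plasma cell marker sum was also higher in p300-KO as a group. Within p300-KO, Slc37a2 was highest in p300-KO_289, which had the lowest of the 3 marker sums. Slc2a3 was highest in p300-KO_287, which had the highest. An order among 3 libraries cannot show the part of plasma cells in these rises, which was not tested. Slc2a6 (chromosome 2, 27021363 to 27027998), GLUT6, a glucose carrier family member of lysosomes, had 535, 534 and 368 in CBP-KO, 678, 822 and 598 in p300-KO, and 856, 771, 1169, 1029 and 731 in WT. CBP-KO lay below both other groups, and p300-KO overlapped with WT. Slc2a6 fell in CBP-KO (log2 -0.92, SE 0.18, adjusted p = 0.00684) and did not pass in p300-KO (log2 -0.37, adjusted p = 0.206). Slc5a3, the sodium and myo-inositol cotransporter, rose in p300-KO (log2 0.42, adjusted p = 0.0165) with 518, 549.7 and 594 against 365 to 448 in WT, and the call was lost without p300-KO_289 (adjusted p = 0.0829). Slc50a1, a SWEET family sugar carrier with the highest per-kb level of its class, passed in neither knockout against WT, and was lower in CBP-KO than in p300-KO (log2 -0.37, adjusted p = 0.0259). Without CBP-KO_53, CBP-KO_55, p300-KO_18 or p300-KO_287 that difference had an adjusted p from 0.0627 to 0.111.

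Of 7 carriers of nucleosides, nucleobases and nucleotides, 1 rose and 1 fell in CBP-KO, beside 3.48% higher and 4.88% lower of all tested genes. In p300-KO none passed, with all 7 fold changes above 0. The fold changes of all 7 vitamin carriers, of 108 of the 175 carriers and of 8091 of 16515 tested genes were also above 0. Slc29a1, the equilibrative nucleoside carrier ENT1, had log2 fold changes of -0.03 in CBP-KO (95% interval -0.17 to 0.11) and 0.03 in p300-KO (-0.12 to 0.17). Slc17a9 (chromosome 2, 180725263 to 180742280), the vesicular nucleotide carrier that loads ATP into secretory vesicles, had 221, 271 and 258 in CBP-KO, 493, 441 and 399 in p300-KO, and 378, 371, 417, 423 and 378 in WT. CBP-KO was below every other library, and p300-KO overlapped with WT. Slc17a9 fell in CBP-KO (log2 -0.65, SE 0.11, adjusted p = 0.00392), stood at log2 0.17 in p300-KO, and was lower in CBP-KO than in p300-KO (log2 -0.83, adjusted p = 0.00174). Slc43a3, a purine nucleobase carrier, had 6384, 6563 and 7479 in CBP-KO, 6229, 6097 and 6363 in p300-KO, and 4849, 5478, 5412, 5628 and 5618 in WT. The 3 groups did not overlap. It rose in CBP-KO (log2 0.33, adjusted p = 0.00779) and missed the threshold in p300-KO (log2 0.21, adjusted p = 0.0556). Slc28a2, the concentrative nucleoside carrier CNT2, had log2 -0.41 in CBP-KO against p300-KO (adjusted p = 0.0425), and leaving out 1 of 8 libraries, namely CBP-KO_53, CBP-KO_55, any p300-KO library, WT_4, WT_7 or WT_288, ended the call (adjusted p up to 0.164).

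Of 23 metal carriers, 3 were called higher (among them Slc39a8, which the rule favoured there) and 2 lower in CBP-KO. In p300-KO 4 were called higher and 2 lower. The called shares were 21.7% in CBP-KO and 26.1% in p300-KO, beside 8.36% and 11.9% of all tested genes. Slc39a8 (chromosome 3, 135825279 to 135888572), the zinc and manganese importer ZIP8, had 121, 211 and 202 in CBP-KO, 100.4, 86.3 and 138 in p300-KO, and 75.2, 58.2, 43.1, 70.9 and 73.8 in WT. Every CBP-KO and p300-KO library exceeded every WT library, and the knockouts overlapped with each other. Its mean in CBP-KO was 2.77 times that in WT. Because the gene reached the limit of the set through its CBP-KO level, no test is given. Slc30a4 (chromosome 2, 122681233 to 122702663), the vesicular zinc exporter ZnT4, had 2574, 2656 and 2488 in CBP-KO, 1495, 2237 and 2329 in p300-KO, and 1274, 1562, 1384, 995 and 1636 in WT. The CBP-KO libraries lay above all others, whereas p300-KO_18 lay within the WT range. Slc30a4 rose 1.88-fold in CBP-KO (log2 0.93, SE 0.16, adjusted p = 0.00439). It was called higher in p300-KO (log2 0.55, adjusted p = 0.0454), a call that ended without p300-KO_287 (adjusted p = 0.169), p300-KO_289 (0.184), WT_4 (0.0838), WT_41 (0.0699), WT_46 (0.0562) or any 1 CBP-KO library (0.0555 to 0.062).

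Of 11 carriers of the Slc39 family, 2 were called lower in CBP-KO, beside 4.88% of all tested genes. Slc39a11 (chromosome 11, 113244853 to 113650079), ZIP11, had 1836, 1385 and 1367 in CBP-KO, 2103, 2395 and 2418 in p300-KO, and 2322, 2037, 2443, 2884 and 2597 in WT. Slc39a4, the intestinal zinc importer ZIP4, had 73.6, 97.4 and 117 in CBP-KO, 266, 146 and 196 in p300-KO, and 182, 176, 186, 261 and 155 in WT. For both genes the CBP-KO libraries were the 3 lowest, and p300-KO overlapped with WT. Slc39a11 fell in CBP-KO (log2 -0.69, SE 0.12, adjusted p = 0.00403) and Slc39a4 likewise (log2 -1.0, SE 0.23, adjusted p = 0.0174). Slc39a4 was not called without CBP-KO_1 (adjusted p = 0.0693) or CBP-KO_53 (0.0603). Against p300-KO, CBP-KO was lower for Slc39a11 (log2 -0.60, adjusted p = 0.0142) and for Slc39a4 (log2 -1.05, adjusted p = 0.022). These ended without CBP-KO_53, CBP-KO_55 or p300-KO_287 for Slc39a11 (adjusted p from 0.0515 to 0.0672), and without CBP-KO_1, CBP-KO_53, p300-KO_18 or p300-KO_289 for Slc39a4 (0.0526 to 0.0918).

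Of the same 11 carriers, 3 were called higher in p300-KO, beside 5.84% of all tested genes. Slc39a3, ZIP3, had 784, 855 and 766 in p300-KO and 657, 564, 541, 626 and 583 in WT, without overlap (log2 0.43, SE 0.09, adjusted p = 0.0069). Slc39a14, ZIP14, which also carries non-transferrin iron, had 1429, 1249 and 1516 in p300-KO and 1229.8, 1124, 1039.9, 928 and 1085 in WT (log2 0.37, adjusted p = 0.033). Slc39a14 ended without p300-KO_18 (adjusted p = 0.105), p300-KO_289 (0.139), WT_41 (0.0622) or WT_288 (0.0558). Slc39a1, ZIP1, was called at log2 0.20 (adjusted p = 0.0346) and lost under the removal of any 1 p300-KO library, WT_7, WT_41 or WT_288 (adjusted p from 0.0562 to 0.096). Slc41a2, a magnesium carrier, was called lower (log2 -0.27, adjusted p = 0.0372), and higher in CBP-KO than in p300-KO (log2 0.42, adjusted p = 0.00936). Its fall in p300-KO was lost without p300-KO_18, p300-KO_289, CBP-KO_55, WT_7, WT_41 or WT_288 (adjusted p up to 0.141). The zinc carriers Slc30a5, Slc30a1 and Slc39a10 and the iron and manganese carrier Slc11a2 passed in no comparison, with log2 fold changes against WT between -0.13 and 0.20.

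Of 37 mitochondrial carriers, 31 did not pass in CBP-KO and 32 did not pass in p300-KO. The called shares were 16.2% in CBP-KO and 13.5% in p300-KO, beside 8.36% and 11.9% of all tested genes. Slc25a5 had log2 fold changes of 0.01 in CBP-KO and -0.06 in p300-KO, and Slc25a3, the phosphate carrier, had -0.01 and -0.05. Slc25a4 rose in CBP-KO (log2 0.23, adjusted p = 0.0247), a call lost without CBP-KO_53, CBP-KO_55, WT_7 or WT_41 (adjusted p from 0.0556 to 0.128). Slc25a23 (chromosome 17, 57043711 to 57059863), a calcium-dependent ATP-magnesium and phosphate carrier, had 333, 491 and 560.1 in CBP-KO, 1182, 1311 and 1278 in p300-KO, and 486, 568, 428, 255 and 501 in WT. The p300-KO libraries were above every other library by more than the range of WT, and CBP-KO overlapped with WT. It rose 2.81-fold in p300-KO (log2 1.54, SE 0.23, adjusted p = 0.00123), stood at log2 0.06 in CBP-KO, and was lower in CBP-KO than in p300-KO (log2 -1.48, SE 0.26, adjusted p = 0.00383). These were the largest called rise among carriers in p300-KO and the largest called difference between the knockouts. Slc25a29, a carrier of basic amino acids near the limit of the set, had 132, 165 and 171 in p300-KO and 84.5, 59.6, 93.7, 113 and 68.5 in WT without overlap. It reached the limit of the set through its p300-KO level, so no test is given.

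Slc25a51 (chromosome 4, 45395923 to 45408766), which imports NAD into mitochondria, had 8341, 9704 and 10153 in CBP-KO, 6411, 6280.4 and 7265 in p300-KO, and 7224, 7661, 8051, 7412 and 7689.9 in WT. Every CBP-KO library was above every other library. Slc25a51 was higher in CBP-KO than in p300-KO (log2 0.50, SE 0.08, adjusted p = 0.00239) and rose against WT (log2 0.30, adjusted p = 0.0205). The call against WT ended without CBP-KO_53 (adjusted p = 0.102) or CBP-KO_55 (0.117). Slc25a30, a mitochondrial carrier described in kidney, rose in CBP-KO to 1388, 1525 and 1611, against 1128 to 1216 in WT (log2 0.36, adjusted p = 0.00536), and in p300-KO to 1349, 1386 and 1409 (log2 0.24, adjusted p = 0.0347). The p300-KO call was lost without 8 of the 11 libraries in turn (adjusted p up to 0.116). Slc25a13, an aspartate and glutamate exchanger, rose in CBP-KO to 2073, 2268 and 2358, against 1342 to 1806 in WT (log2 0.43, adjusted p = 0.0178). Without CBP-KO_53 (adjusted p = 0.0778) or CBP-KO_55 (0.0909) it was not called.

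Slc25a25 (chromosome 2, 32414487 to 32451445), a second ATP-magnesium and phosphate carrier, had 2452, 2567 and 2655 in CBP-KO, 2712, 2464 and 2869 in p300-KO, and 3253, 3149, 3157, 3029 and 3115 in WT. All 6 knockout libraries lay below all 5 WT libraries. Slc25a25 fell in CBP-KO (log2 -0.30, SE 0.06, adjusted p = 0.00942) and in p300-KO (log2 -0.23, adjusted p = 0.0259). In p300-KO the fall was lost without p300-KO_18 (adjusted p = 0.0649), p300-KO_287 (0.113), WT_4 (0.0508) or WT_7 (0.0509). CBP and p300 are coactivators of CREB, which binds the cAMP response element TGACGTCA, and upstream windows of the carriers were therefore searched for it on both strands. RefSeq promoter windows (GRCm38.p6, 250 bases upstream of each annotated start) were matched for 134 of the 175 carriers. The element was found in 3 of them, or 2.24%, beside 1.77% of all genes with a window and 1.55% of all 32851 windows of that length. The shorter element TGACG, which TGACGTCA contains, was in 30.6% of the carriers and 19.8% of all genes, and the E-box CACGTG in 16.4% of the carriers and 6.86% of all genes. The carriers are expressed genes and the comparison is with all genes, expressed or not.

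The 3 windows with TGACGTCA are printed because they are the only ones among the 134 carriers, with the element in capitals. That of Slc25a25 (chr2:32424067-32424316, minus strand, 1 of 3 annotated start windows) holds it 150 bases before the start. Those of Slc25a36 (chr9:97111161-97111291, minus strand) and Slc38a6 (chr12:73286711-73286778, plus strand) are cut to the stretch outside annotated exons, with the element 161 and 121 bases before the RefSeq start.
Slc25a25: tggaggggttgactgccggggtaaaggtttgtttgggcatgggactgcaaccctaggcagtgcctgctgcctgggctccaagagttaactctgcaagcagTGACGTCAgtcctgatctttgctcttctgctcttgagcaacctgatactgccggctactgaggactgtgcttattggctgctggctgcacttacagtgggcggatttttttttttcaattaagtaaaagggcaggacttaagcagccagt
Slc25a36: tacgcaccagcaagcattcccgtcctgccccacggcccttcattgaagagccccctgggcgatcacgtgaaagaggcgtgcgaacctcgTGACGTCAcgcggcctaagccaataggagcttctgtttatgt
Slc38a6: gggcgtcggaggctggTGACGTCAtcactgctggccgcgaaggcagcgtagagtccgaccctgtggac
Slc25a25 was the 1 gene of the 3 that fell in either knockout. Slc25a36, a pyrimidine nucleotide carrier of mitochondria, had log2 fold changes of 0.18 in CBP-KO and 0.03 in p300-KO, and Slc38a6, a member of the glutamine carrier family, had -0.08 and -0.10, none past the test. A match is a run of letters and was not tested as a binding site.

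**Figure D3:**
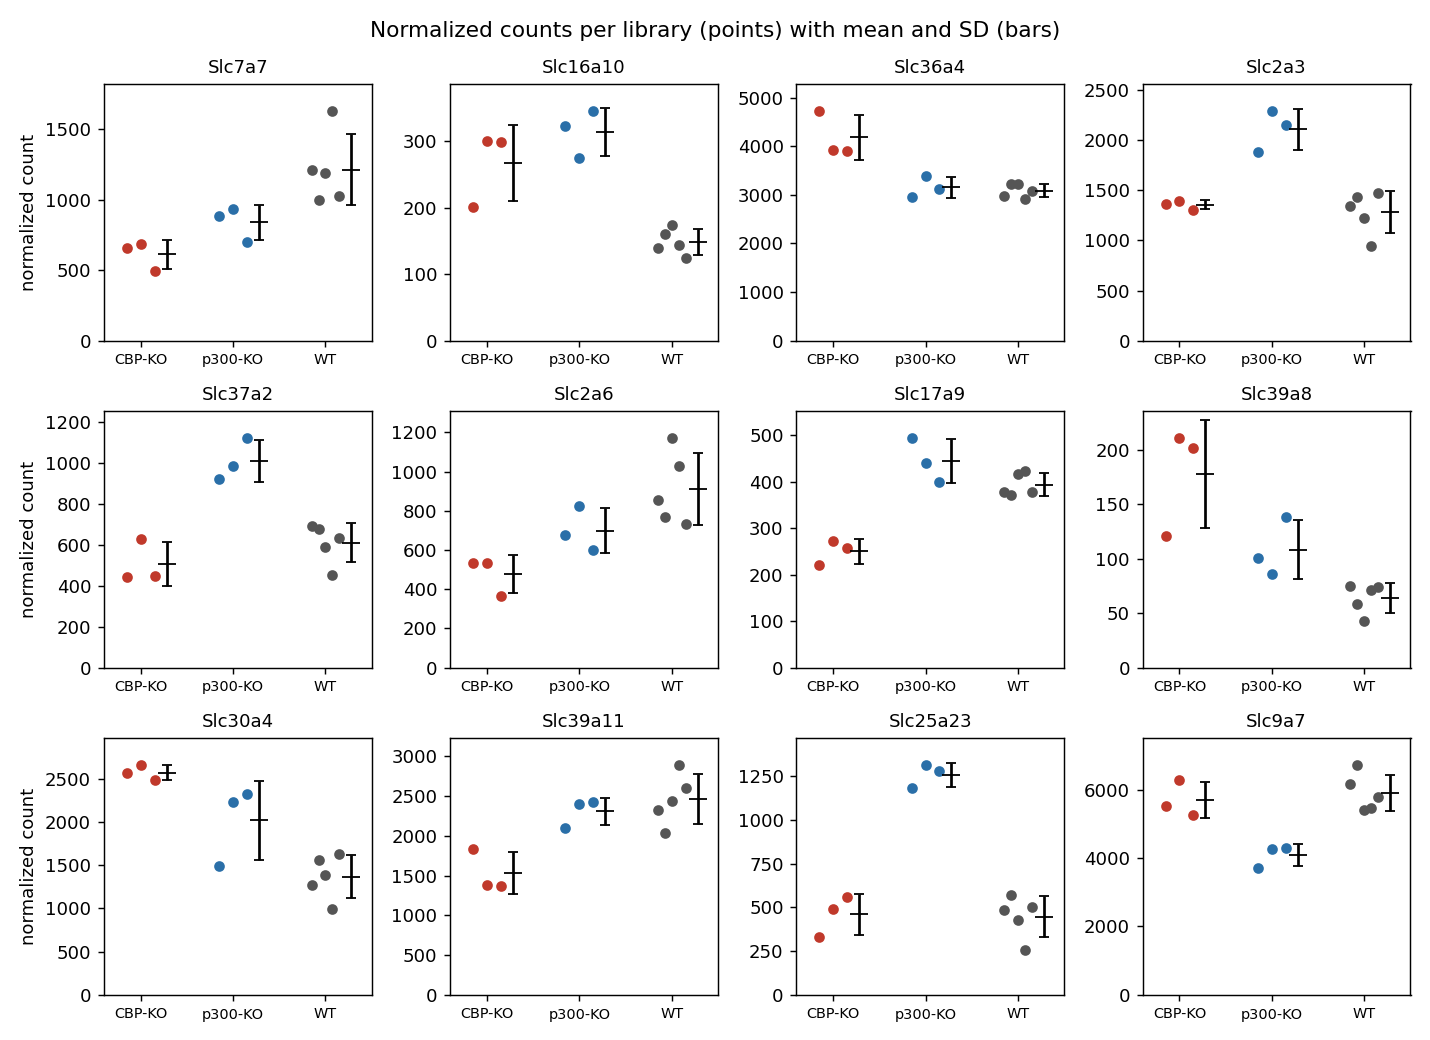
Normalized counts of 12 carriers in every library, with CBP-KO (3 points), p300-KO (3 points) and WT (5 points) from left to right, and the mean with SD beside each group. Slc25a23 stands at 1182 to 1311 in p300-KO, above 333 to 560.1 in CBP-KO and 255 to 568 in WT, and Slc17a9 stands at 221 to 271 in CBP-KO, below 399 to 493 in p300-KO and 371 to 423 in WT.

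Among the 25 inorganic ion carriers, 2 fell and none rose in CBP-KO, and 2 rose and 3 fell in p300-KO. The called shares were 8.0% in CBP-KO and 20% in p300-KO, beside 8.36% and 11.9% of all tested genes. Slc4a8 (chromosome 15, 100761747 to 100823968), a sodium-driven chloride and bicarbonate exchanger, had 3216, 2200.4 and 3031 in CBP-KO, 3544, 4352 and 3179.6 in p300-KO, and 4607, 4731, 5483, 7089 and 5061 in WT. Slc12a3, the thiazide-sensitive sodium chloride cotransporter, had 146, 114 and 110.3 in CBP-KO, 157, 189 and 101 in p300-KO, and 268, 244, 309, 423 and 233 in WT. In both genes every knockout library was below every WT library, and WT_46 was highest. Slc4a8 fell in CBP-KO (log2 -0.94, SE 0.16, adjusted p = 0.00316) and in p300-KO (log2 -0.54, adjusted p = 0.0402). Slc12a3 fell in CBP-KO (log2 -1.23, SE 0.23, adjusted p = 0.00656) and in p300-KO (log2 -1.0, adjusted p = 0.0152). The p300-KO calls ended without p300-KO_289 for Slc12a3 (adjusted p = 0.0785), and for Slc4a8 without p300-KO_18 (0.118), p300-KO_289 (0.164), CBP-KO_55 (0.0503), WT_41 (0.0717) or WT_288 (0.0579). The macrophage and T cell marker sums, led by Mpeg1 and Lck, were lower in both knockouts than in WT, while in p300-KO Mpeg1 alone of 8 macrophage markers was called lower; their part in these falls was not tested.

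Slc9a7 (chromosome X, 20105754 to 20291807), a sodium and proton exchanger of the trans-Golgi network, had 5532, 6287 and 5255 in CBP-KO, 3719, 4252 and 4297 in p300-KO, and 6149, 6703, 5413, 5449 and 5779.6 in WT. The p300-KO libraries were the 3 lowest. Slc9a7 fell in p300-KO (log2 -0.53, SE 0.08, adjusted p = 0.00181), stood at log2 -0.05 in CBP-KO, and was higher in CBP-KO than in p300-KO (log2 0.48, adjusted p = 0.00808). With sex as a covariate and without p300-KO_18 its fall had an adjusted p of 0.0138. That refit ended the p300-KO calls of Slc15a3 (adjusted p = 0.0964), Slc4a8 (0.0989), Slc45a4 (0.102), Slc39a1 (0.111) and Slc39a14 (0.0816). It also ended those of Slc7a1 (0.0689), Slc25a25 (0.0634), Slc25a30 (0.0592), Slc41a2 (0.0517) and Slc4a3 (0.0587). Between the knockouts it ended the calls of Slc15a3 (0.0654), Slc19a1 (0.0937), Slc39a1 (0.113) and Slc50a1 (0.0805). Slc4a3, the anion exchanger AE3, had 483, 483 and 493 in CBP-KO, 781, 939 and 734 in p300-KO, and 549, 573, 609, 704 and 629 in WT. The 3 groups did not overlap. Slc4a3 was lower in CBP-KO than in p300-KO (log2 -0.74, SE 0.12, adjusted p = 0.00226), rose in p300-KO against WT (log2 0.41, adjusted p = 0.0227), and did not pass in CBP-KO against WT (log2 -0.33, adjusted p = 0.0772). The rise was lost without p300-KO_18 (adjusted p = 0.0536), p300-KO_287 (0.11) or WT_7 (0.0502).

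Carriers of fatty acids and choline gave 1 call in each knockout. Slc27a4, the fatty acid transport protein FATP4, had 786, 766 and 682 in CBP-KO, 1020.1, 1044 and 1069.7 in p300-KO, and 797, 534, 601, 448 and 619 in WT. It was highest in the 3 p300-KO libraries and rose there 1.74-fold (log2 0.83, SE 0.15, adjusted p = 0.0033). Slc44a2, a choline transporter-like protein, had 10061, 10812 and 10156 in CBP-KO, 13455, 13408 and 12845 in p300-KO, and 12052, 13052, 14403, 12264 and 11687 in WT. It fell in CBP-KO (log2 -0.29, adjusted p = 0.0151), where all libraries were below all others, and was lower in CBP-KO than in p300-KO (log2 -0.36, adjusted p = 0.00937). The call against WT ended without CBP-KO_1 (adjusted p = 0.0526) or CBP-KO_55 (0.071). Among organic acid carriers Slc16a1, the lactate and pyruvate carrier MCT1, passed in neither knockout (log2 -0.18 and -0.17). Slc16a13, a monocarboxylate carrier family member, rose in p300-KO to 271, 243 and 271, against 116 to 177 in WT (log2 0.88, SE 0.17, adjusted p = 0.00588).

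The Slc35 family includes the carriers that load nucleotide sugars into the Golgi and endoplasmic reticulum, and its genes were classed together by family number, whatever each one carries. Of its 20 genes in the set, 2 were called in each knockout, all higher, or 10%, beside 9.87% in CBP-KO and 14.3% in p300-KO of genes with a mean of at least 100. In CBP-KO Slc35g1 (log2 0.45, adjusted p = 0.00763) and Slc35a3, a UDP-N-acetylglucosamine carrier (log2 0.33, adjusted p = 0.0362), were called, and in p300-KO Slc35d2 (log2 0.56, adjusted p = 0.0179) and Slc35b4 (log2 0.27, adjusted p = 0.0127). Slc35g1 had 1708, 1696 and 1936 in CBP-KO, 1379, 1367 and 1529 in p300-KO, and 1303, 1342, 1099.9, 1381 and 1385 in WT, and CBP-KO was above both other groups. Slc35d2 had 531, 411 and 394 in CBP-KO, 641, 845 and 722 in p300-KO, and 497, 515, 586, 432 and 467 in WT, and p300-KO was above both other groups. Each of these calls was lost without 1 or more libraries: Slc35g1 without CBP-KO_55 (adjusted p = 0.0517), Slc35d2 without p300-KO_287 (0.0877) or p300-KO_289 (0.0573), Slc35b4 without p300-KO_289 (0.0713), and Slc35a3 without any 1 CBP-KO library, WT_4, WT_7 or WT_41 (up to 0.142). Slc19a2, a thiamine carrier, rose in CBP-KO (log2 0.46, adjusted p = 0.0332), a call lost without CBP-KO_53, CBP-KO_55, WT_4 or WT_41 (adjusted p up to 0.161).

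The direct comparison of the knockouts, in which WT enters only through the shared estimate of the spread, gave 27 carriers past the test. Of these 7 were higher and 20 lower in CBP-KO than in p300-KO, or 15.4% of the carriers beside 9.42% of all tested genes (4.79% higher and 4.63% lower) and 11.5% of genes with a mean of at least 100. The median log2 difference was -0.08 for the carriers and 0.00 for all tested genes. Groups did not overlap in 79 carriers, the 27 called ones included, where 31.0% of all tested genes had none. The lower carriers included 3 of 7 nucleoside carriers, 3 of 14 sugar carriers, 4 of 23 metal carriers and 4 of 37 mitochondrial carriers, and the higher ones included 3 of 24 amino acid and peptide carriers. Among plotted carriers not described above for this comparison, the difference of Slc19a1, the reduced folate carrier, ended without CBP-KO_1, p300-KO_18 or p300-KO_287 (adjusted p from 0.0526 to 0.0856), and that of Slc39a14 without CBP-KO_55, p300-KO_18 or p300-KO_289 (0.0512 to 0.0536). Without CBP-KO_55 the adjusted p was 0.0507 for Slc26a10 and 0.0508 for Slc35d2. The difference of Slc39a1 ended without CBP-KO_53, CBP-KO_55, WT_7 or any 1 p300-KO library (0.0534 to 0.134). The 3 differences of at least a factor of 2 were those of Slc25a23, Slc37a2 and Slc39a4.

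**Figure D4:**
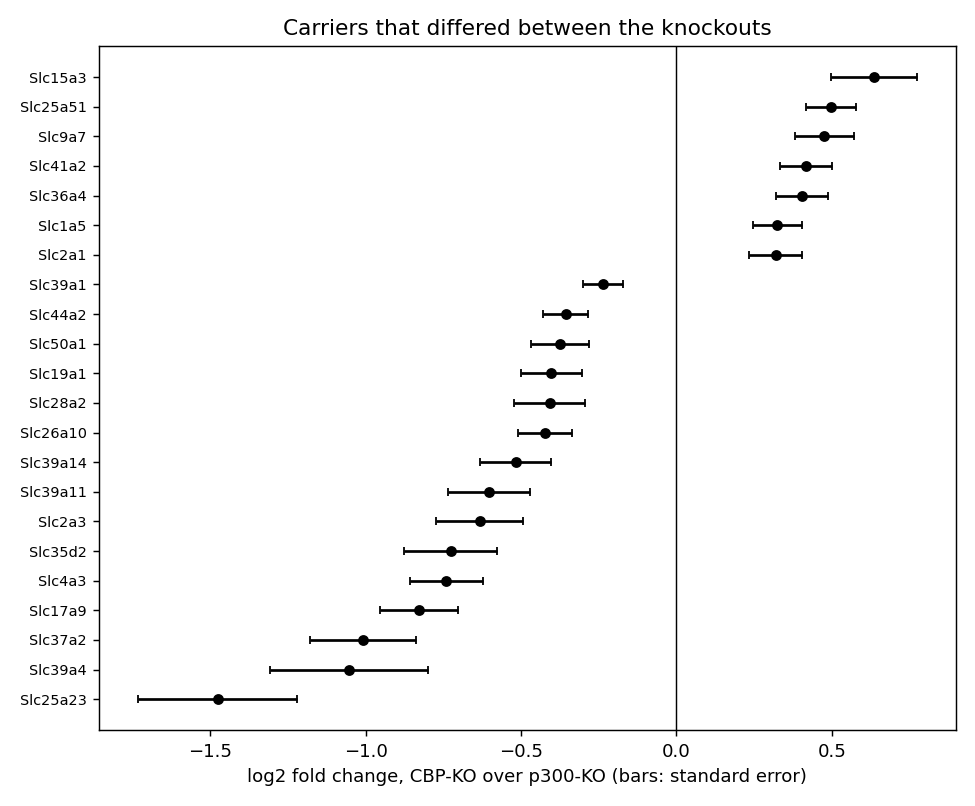
Log2 fold change of CBP-KO over p300-KO for 22 carriers that passed the direct test, with bars for 1 standard error. The 15 points left of 0 are lower in CBP-KO, down to -1.48 for Slc25a23, and the 7 points right of 0 are higher in CBP-KO, up to 0.63 for Slc15a3, a call that was lost without CBP-KO_53, p300-KO_18 or p300-KO_287 (adjusted p from 0.0504 to 0.0613).

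Genes that work with carriers but are named otherwise were counted from fixed lists. Of 24 tested transporters and partners, 1 rose and 4 fell in CBP-KO, and 2 rose and 2 fell in p300-KO. Over all tested genes the shares were 3.48% higher and 4.88% lower in CBP-KO and 5.84% higher and 6.09% lower in p300-KO, and nothing particular to the lists is read from their counts. Flvcr1, a heme and choline transporter, rose in both (log2 0.39 in CBP-KO and 0.37 in p300-KO), and Mt1, a zinc-binding metallothionein present at very low counts, fell in CBP-KO (log2 -2.32). Steap3, an iron reductase, fell in CBP-KO (log2 -0.86). Bsg and Emb, the chaperones of monocarboxylate carriers, were at log2 0.23 and -0.73 in p300-KO, both past the test. Of 14 tested amino acid response genes 1 rose in CBP-KO and 3 rose and 2 fell in p300-KO. Those that rose included Castor2, a subunit of an arginine sensor (log2 0.85 in CBP-KO and 1.56 in p300-KO), and Sesn2, a leucine sensor (log2 0.52 in p300-KO). The 2 that fell in p300-KO were Psat1 (log2 -0.24) and Cebpb (log2 -0.39). Of 16 tested glycolysis genes, none rose and 1 fell in CBP-KO, and 1 rose and 1 fell in p300-KO: Pfkp, a phosphofructokinase, fell in both (log2 -0.53 in CBP-KO and -0.31 in p300-KO), and Hk2, a hexokinase, rose in p300-KO (log2 0.26).

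Some carriers share a chromosome with a targeted gene. The carrier nearest to Crebbp, Slc25a1, lies 13.7 Mb away. Slc25a17, a peroxisomal member of the Slc25 family, lies 0.225 Mb from Ep300 on chromosome 15 and passed in neither knockout (log2 -0.02 in CBP-KO and -0.08 in p300-KO). Slc39a4 lies 4.97 Mb and Slc45a4 7.94 Mb from Ep300 on the same chromosome. Slc45a4, a member of a family of sugar carriers, fell in p300-KO (log2 -0.24, adjusted p = 0.0235), with 2018, 2084 and 2115 against 2314 to 2604 in WT, and in CBP-KO (log2 -0.26, adjusted p = 0.018) with 2136, 1975 and 1996. In p300-KO the call was lost without any 1 of its libraries (adjusted p from 0.0589 to 0.0899), and in CBP-KO without CBP-KO_53 (0.0935) or CBP-KO_55 (0.0816).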

How the data were processed

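RNA-seq of sorted germinal center B cells was taken as 1 table with a column per library (11 columns). Per the submitters' processing notes, CASAVA 1.8, HISAT2, featureCounts and DESeq2 with mm10 were used; settings are not given in the sources used here. The deposited signal values are read counts divided by the authors' DESeq2 size factor, and whole reads were recovered for 100% of values within 1e-06. Per the labels, TruSeq RNA v2 libraries were made, so strand is not kept. In 15 carriers the exons overlapped another annotated gene over 10% or more of their length, and the overlap is given above for Slc15a3 only. Replicate libraries all differed beyond sampling noise.

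Limma 3.58.1 with a variance trend was fitted to log2(value + 1) of 16515 genes with a mean of at least 10, in 1 model of all 11 libraries with 3 group means. Tests were two-sided and p-values were adjusted over all tested genes by the Benjamini-Hochberg method. The pseudocount understates changes of low genes. Adjusted p-values are limma's. Per-kb levels use exon lengths of GENCODE M21 (GRCm38, the build of mm10), which also gave positions, and promoters are RefSeq's. Named carriers were up to 24 called ones by p in each comparison with WT and 12 in the direct one, the top 3 of each class, textbook carriers, and up to 4 called genes of each list; some genes the rule named are not described. Members, classes and lists were chosen with earlier results of these data known. Alternatives changed the pseudocount, filter, normalization, libraries, weights and a covariate for sex, and used DESeq2 1.42.0 or edgeR 4.0.16 for the recovered reads. Limma was tested on simulated data. R 4.3.3, Python 3.11.15, pandas 2.3.3 and matplotlib 3.10.9 were used.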

Additional observations from a re-analysis of the deposited data

Results flagged for a closer look

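In 10 of the 175 carriers 1 of the 5 WT libraries stood apart from the other 4 by Dixon's test, which chance gives in about 1 of 20 groups. Of these, 5 were named by the rule for reporting. Slc19a1, the reduced folate carrier, was lowest in WT_46 at 970.4, with the next WT library at 1149. Slc9a8, a sodium and proton exchanger, was lowest in WT_46 at 5384, with the next at 5802. Slc25a13 was lowest in WT_41 at 1342, with the next at 1686, and Slc35g1 in WT_41 at 1099.9, with the next at 1303. Slc43a3 was lowest in WT_4 at 4849, with the next at 5412.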

How the results depend on the processing

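No paired analysis was possible because no replicate number occurs in more than 1 group. Leaving out 1 library at a time gave 13 to 28 called carriers in CBP-KO against WT (25 with all libraries; 13 without CBP-KO_55 and 14 without CBP-KO_53). In p300-KO against WT it gave 12 to 29 (30 with all; 15 without p300-KO_18, 14 without p300-KO_287 and 12 without p300-KO_289). In CBP-KO against p300-KO it gave 13 to 31 (27 with all; 13 without CBP-KO_55, 17 without CBP-KO_53 and 16 without p300-KO_287). Weights per library gave 44 called in CBP-KO against WT and 49 between the knockouts, DESeq2 on recovered reads gave 41 between the knockouts, and sex as a covariate without p300-KO_18 gave 15 in p300-KO against WT. The cause was not tested. Other alternatives of these counts stayed within a factor of 1.5. No named called carrier changed direction under any alternative run. Over all alternatives, named called carriers kept the call in 519 of 552 values in CBP-KO against WT (33 lost), 495 of 598 in p300-KO against WT (103 lost) and 468 of 529 between the knockouts (61 lost). These values pool many overlapping refits of each gene. By gene, the call held under every alternative in 12 of 24 named called carriers in CBP-KO against WT. It did so in 8 of 26 in p300-KO against WT and in 10 of 23 between the knockouts.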
